A study of Xenopus laevis with 20 samples.

Results

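The genes described here are 94 DNA replication and cell cycle genes of the frog Xenopus laevis, measured in animal caps in which Pax3, Zic1 or both were made active. They were chosen by name, as symbols beginning with mcm or orc plus a digit, gins, rfc plus a digit, pola, pold, pole, ccna, ccnb, ccnd, ccne or cdk plus a digit, or equal to cdc6, cdc7, cdc20, cdc45, cdt1, gmnn, pcna or dscc1 without the ending .L or .S. On the array 122 probe sets with 103 symbols met that name rule. A filter that asked for log2 4 or more on at least 5 of 20 arrays kept 110 of these probe sets, and 9 symbols had no probe set left. With 1 probe set per symbol, the one with the highest mean, 94 genes remained, of 8397 named genes and 20519 probe sets tested in all. The endings .L and .S mark the 2 copies of a gene that the genome duplication of this species left. Of the 94 members 75 were placed in 6 replication and cycle roles by symbol. The other 19 are further kinases of the Cdk family and genes that share only a prefix, such as cdk5rap3.L and poldip2.L, and they are treated apart at the end. They include cdk7.L, whose kinase activates other Cdks and also serves transcription.

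An animal cap is the prospective ectoderm of a blastula, which makes epidermis when cultured alone. Each of the 20 samples was 1 explant, from an embryo injected with mRNA as it reached 2 cells. The injected mRNAs were Pax3GR in 5 caps, Zic1GR in 5 caps, both together in 5 caps (called the combination) and GR alone in 5 control caps. Pax3 and Zic1 are transcription factors of the neural plate border, and each carried the ligand-binding domain of the glucocorticoid receptor (GR) as a fusion, which keeps the protein inactive until hormone is added. Caps of all 4 groups, GR caps included, were cut at stage 9 and cultured with dexamethasone for 8 h, so hormone and receptor were common to every group. The label protocols give 100 ng of total RNA from a single explant for each array, and name separate explants as replicates without saying whether equal replicate numbers shared a clutch.

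Replication begins when the origin recognition complex (Orc), with Cdc6 and Cdt1, loads the Mcm helicase onto DNA in G1, a step called licensing that geminin blocks by binding Cdt1. In S phase Cdc45 and the GINS complex join Mcm to form the working helicase, and the polymerases follow, held to DNA by the clamp PCNA and its loader RFC. Cyclins D and E with their Cdk partners carry cells into S phase, and cyclins A and B with Cdk1 carry them into mitosis. Geminin is also known in Xenopus as a protein that favours neural over epidermal fate in early ectoderm.

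The 20 arrays were alike in overall signal, with medians between 6.103 and 6.301 on the log2 scale and 18949 to 19239 probe sets at log2 4 or above. The arrays least like their groups were Pax3GR replicate 1 (mean correlation 0.881 with the others of its group), Zic1GR replicate 5 (0.925), combination replicate 4 (0.922) and GR replicate 3 (0.963). Cell types differed between groups. All 10 multiciliated cell markers tested were lower in Pax3GR caps than in GR caps, 8 were lower in Zic1GR caps and 7 in combination caps (limma, adjusted p under 0.05). Of these foxj1.L and tekt2.L passed the filter through GR arrays. In the same order of groups (Pax3GR, Zic1GR, combination), 7, 9 and 7 of 9 ionocyte markers, 11, 3 and 4 of 14 epidermis markers, 4, 2 and 4 of 5 markers of mucus-secreting cells and 4, 3 and 3 of 5 endoderm markers were lower. Against this direction 1, 2 and 2 of the epidermis markers were higher, and 1 endoderm marker was higher with Zic1GR. Neural crest markers were higher for 8, 7 and 8 of the 8 tested. Hatching gland markers were higher for 3, 2 and 3 of 4, and 1 was lower with Zic1GR. Both pax3 copies are in that list. Pax3GR mRNA was injected into Pax3GR and combination caps, so rises of pax3 in those caps are not read as a sign of hatching gland. Neural plate markers were higher for 7, 7 and 4 of 9, with 2 of the 9 lower in combination caps. Of 7 cement gland markers 1 was higher and 4 lower with Pax3GR, 3 were higher with Zic1GR and 4 lower with the combination. Of 6 markers of neurons 2, 3 and 2 were higher, and 3 were lower with Pax3GR and 3 with the combination. Over all probe sets 27.3%, 28.6% and 24.6% were higher and 23.0%, 22.8% and 20.3% lower. Epidermis markers lower with Zic1GR made up 21.4% of their list, near that background. The markers foxi1.L, ubp1.L, foxa1.L, gata5.S and hhex.L passed the filter through GR arrays, nes.S through Pax3GR arrays, and pitx1.L and neurog2.S through Zic1GR arrays. The epidermis marker tp63.L reached log2 4 on 4 combination and 4 GR arrays only. The filter largely set the direction of these changes, so they are not read as tests. Because the RNA of whole explants was measured, fewer cells of a type and less RNA per cell cannot be told apart. The part of these cell types in the results below was not tested. The marker counts cover only symbols that passed the filter. It removed 3 of 11 symbols on the array for neural crest (snai2.S, sox10.L and twist1.L) and 4 of 10 for neurons. It also removed 3 of 8 for endoderm, 2 of 12 for multiciliated cells and 1 of 10 for ionocytes. The highest value of the removed neural crest symbols on any array was 8.46. Of 8 mesoderm symbols on the array 5 did not pass the filter, among them myod1.L, tbxt.L and actc1.L. The other 3, myf5.L, myod1.S and tbxt.S, were all higher with Pax3GR, and 1 and 2 of them were with Zic1GR and the combination. Both myf5.L and tbxt.S reached log2 4 on 0 GR arrays and passed the filter through injected arrays. Their rises against GR were largely set by that filter and are not read as tests. Among these myf5.L averaged 10.58 ± 0.70 in Pax3GR caps, 1.92 ± 0.03 in Zic1GR caps and 6.14 ± 3.83 in combination caps, against 1.94 ± 0.01 in GR caps (SD, n = 5 each).

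In all 3 injected groups more members were higher than lower relative to GR caps. With Pax3GR 33 of the 94 members rose (35.1%, where 27.3% of all probe sets tested rose) and 8 fell (8.51%, where 23.0% of all fell). With Zic1GR 51 rose (54.3%, background 28.6%) and 7 fell (7.45%, background 22.8%). With the combination 36 rose (38.3%, background 24.6%) and 7 fell (7.45%, background 20.3%). A rise or fall here is an adjusted p under 0.05 over all 20519 probe sets in limma's moderated test. The median difference over the members was 0.31 with Pax3GR, 0.42 with Zic1GR and 0.30 with the combination on the log2 scale, against 0.10, 0.09 and 0.08 over all probe sets tested. Over the 8397 named genes the shares were close to those of all probe sets, at 28.4% higher and 23.4% lower with Pax3GR, 30.3% and 23.4% with Zic1GR, and 25.5% and 20.8% with the combination.

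Most changes were modest. Differences of at least 1 on the log2 scale, which is 2-fold, were called higher for 10 members with Pax3GR, 24 with Zic1GR and 10 with the combination, and called lower for 6, 5 and 4. Over all 20519 probe sets tested 2959, 2908 and 2510 were called higher at that size, and 3371, 3213 and 2843 lower. The members' share of 2-fold rises was thus above the background with Zic1GR and below it with Pax3GR and the combination. Their share of 2-fold falls was below it in all 3. Across the 3 comparisons, which share the same 5 GR arrays, 25 members were higher in all 3, 12 in 2 and 21 in 1. In the other direction 5 members were lower in all 3, 2 in 2 and 3 in 1, and 26 members were called in none. The same overlap was not counted over all probe sets, so these counts are not read as particular to the members. The counts of members lower hold 2 genes, cdk20.S and cdk5rap3.S, that passed the filter through the GR arrays and so had little chance of not being lower. With these and cdc45.S, which passed through the Pax3GR arrays, left out 6, 5 and 6 members fell. No member was called higher in one comparison and lower in another. Among the 75 members with a place in replication or the cycle 27 rose and 4 fell with Pax3GR, 46 rose and 4 fell with Zic1GR, and 32 rose and 5 fell with the combination. With cdk7.L added the falls were 5, 5 and 6 of 76.

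**Figure D1:**
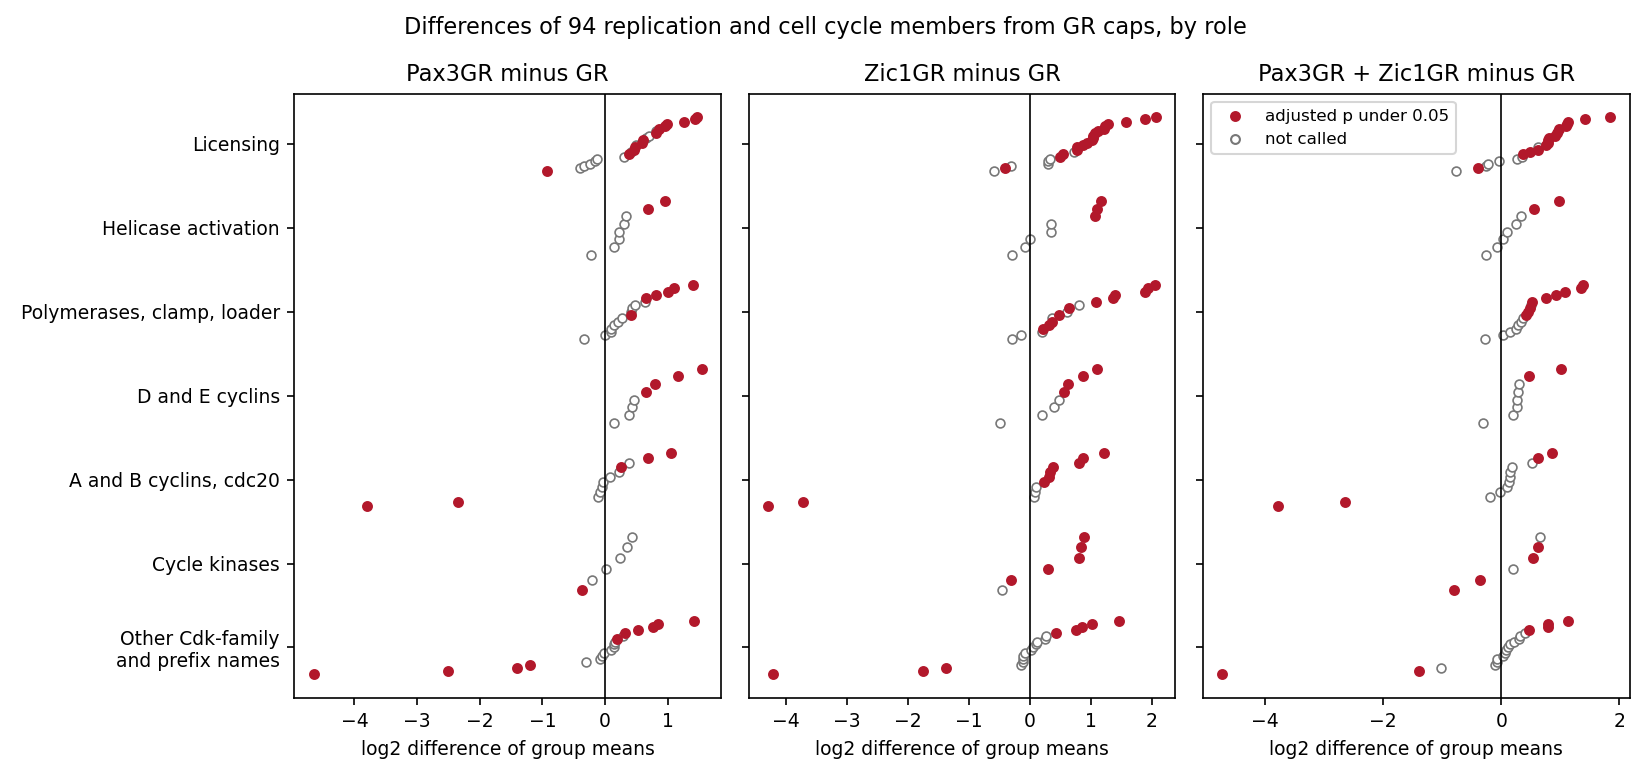
Differences of the 94 members from GR caps on the log2 scale (x axis), in Pax3GR, Zic1GR and combination caps (left, middle and right), grouped by role (y axis). Each point is 1 gene, and filled points have an adjusted p under 0.05. Filled points lie mostly to the right of 0, and the points far to the left are ccna1.L, ccna1.S, cdk20.S, cdk7.L and cdk5rap3.S. In the left panel cdk5rap3.L is also among them.

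The mean level of the 75 cycle members on each array showed how even the difference was over explants. These means lay between 10.318 and 10.749 in Pax3GR caps, between 10.529 and 10.918 in Zic1GR caps and between 10.439 and 10.721 in combination caps, against 10.051 to 10.413 in GR caps. Zic1GR and combination caps did not overlap GR caps. Means over all probe sets were not set beside these, so the separation is not read as particular to the members. Of the Pax3GR caps only replicate 1, the lowest, lay within the range of GR caps. Without Pax3GR replicate 1 the members that rose with Pax3GR numbered 39 and those that fell 9. Without GR replicate 3, the lowest GR array, 31, 44 and 29 members rose with Pax3GR, Zic1GR and the combination.

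**Figure D2:**
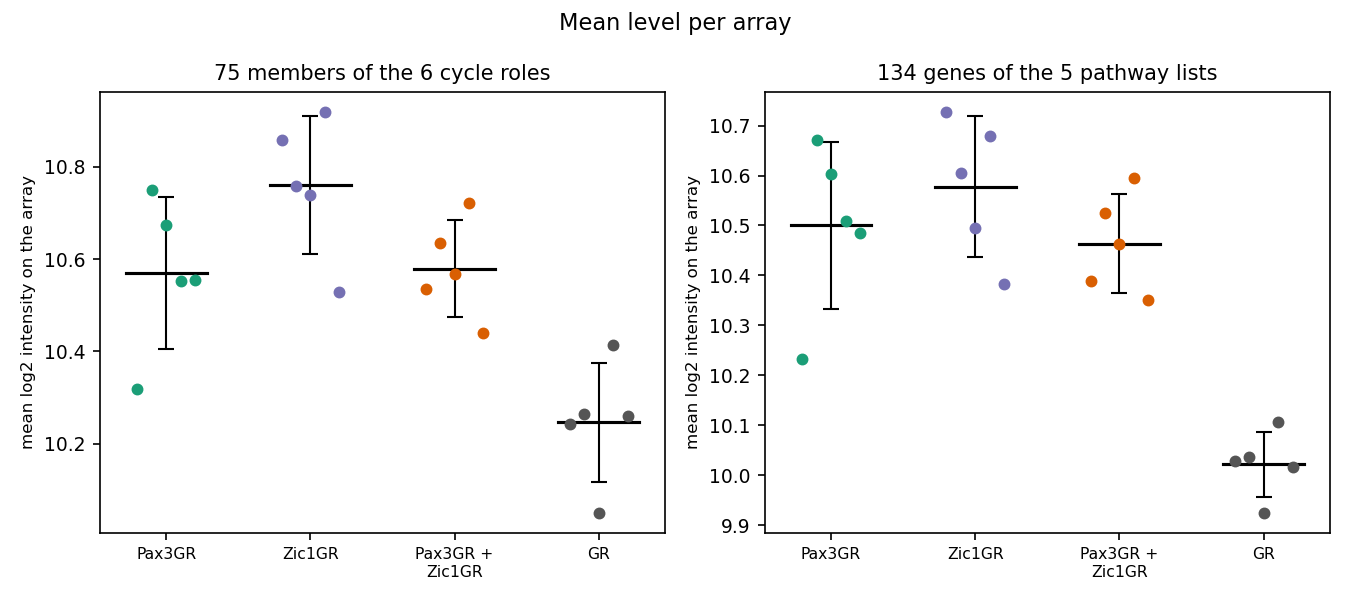
Mean log2 intensity per array (y axis) of the 75 members in the 6 replication and cycle roles (left) and of 134 genes of the 5 pathway lists (right), for Pax3GR, Zic1GR, combination and GR caps (x axis). Points are single arrays, bars are group means and whiskers 1 SD over 5 arrays. The GR caps are the lowest group in both panels, and Pax3GR replicate 1 is the lowest injected array in both.

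Origin recognition, Mcm and licensing genes, the largest role, held the most members called in all 3 comparisons. Of the 24 genes in this role 12 rose with Pax3GR, 17 with Zic1GR and 15 with the combination, with 10 higher in all 3, while 1 fell in each. The shares higher were 50%, 70.8% and 62.5%, against backgrounds of 27.3%, 28.6% and 24.6%. The role takes in mcm8.L and mcm9.L, relatives of the replicative Mcm genes that work in repair. Without them 10, 16 and 13 of 22 rose, and 9 rose in all 3. Both copies of geminin rose in all 3 injected groups. The level of gmnn.L was 12.10, 12.67, 12.27, 11.92 and 11.94 in Pax3GR caps, 12.56, 12.10, 12.09, 12.58 and 12.13 in Zic1GR caps and 12.75, 12.77, 12.36, 12.62 and 12.29 in combination caps, against 11.08, 10.59, 10.33, 10.98 and 10.57 in GR caps. All 15 injected caps lay above all 5 GR caps. The difference was 1.47 ± 0.18 (adjusted p = 2.71e-06) with Pax3GR, 1.58 ± 0.18 (adjusted p = 1.74e-06) with Zic1GR and 1.85 ± 0.18 (adjusted p = 2.32e-07) with the combination. The .S copy, gmnn.S, had 12.78, 13.37, 13.46, 13.48 and 13.42 in Pax3GR caps, 13.52, 13.02, 13.14, 13.08 and 12.75 in Zic1GR caps and 13.07, 13.04, 12.77, 13.04 and 12.92 in combination caps, against 11.94, 11.83, 11.72, 12.07 and 11.79 in GR caps. Injected and GR caps again did not overlap, and Pax3GR replicate 1 was the lowest of its group. On gmnn.S the difference was 1.43 ± 0.15 (adjusted p = 4.13e-07) with Pax3GR, 1.23 ± 0.15 (adjusted p = 3.62e-06) with Zic1GR and 1.10 ± 0.15 (adjusted p = 1.23e-05) with the combination.

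Genes of the partners that load the helicase, cdt1.L and cdc6.L, rose too, and no other cdt1 copy was among the members. For cdt1.L, the loading factor that geminin binds, the arrays gave 13.07, 13.32, 13.47, 13.23 and 13.33 in Pax3GR caps, 13.16, 13.08, 13.26, 13.39 and 12.93 in Zic1GR caps and 13.35, 13.42, 13.17, 12.99 and 13.07 in combination caps, against 12.15, 12.39, 12.13, 12.52 and 12.31 in GR caps. No injected cap overlapped a GR cap. The difference was 0.98 ± 0.12 (adjusted p = 2.08e-06) with Pax3GR, 0.87 ± 0.12 (adjusted p = 1.23e-05) with Zic1GR and 0.90 ± 0.12 (adjusted p = 7.78e-06) with the combination. For cdc6.L, the ATPase that acts with Cdt1, they gave 11.93, 12.63, 12.76, 12.33 and 12.52 in Pax3GR caps, 12.43, 12.20, 12.42, 12.72 and 12.33 in Zic1GR caps and 12.58, 12.69, 12.21, 12.54 and 12.09 in combination caps, against 11.39, 11.53, 11.42, 11.65 and 11.42 in GR caps. The groups were separate from GR caps here as well, with differences of 0.95, 0.94 and 0.94 in Pax3GR, Zic1GR and combination caps (adjusted p = 5.98e-05, 9.05e-05 and 9.62e-05). The cdc6.S differences were -0.12, 0.30 and -0.22, and none passed the test (adjusted p = 0.626, 0.207 and 0.365). A difference between the cdc6 copies was not tested.

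Subunits of the Mcm helicase differed among themselves. Those higher in all 3 groups were mcm2.L, mcm5.L, mcm6.2.L, mcm7.L and mcm7.S, and so was mcm8.L of the repair pair Mcm8 and Mcm9. Of these mcm5.L rose by 0.85, 1.04 and 0.98 and mcm7.L by 0.38, 0.49 and 0.37 with Pax3GR, Zic1GR and the combination. The 2 copies of mcm4 rose with Zic1GR and with the combination. On mcm4.S the arrays read 10.25, 11.43, 11.40, 10.48 and 10.40 in Pax3GR caps, 12.46, 12.16, 12.31, 12.74 and 11.69 in Zic1GR caps and 11.21, 11.40, 11.54, 11.87 and 11.40 in combination caps, against 10.15, 10.59, 9.84, 10.66 and 10.67 in GR caps. Every Zic1GR and combination cap lay above every GR cap, and Pax3GR caps overlapped GR caps. The mcm4.S difference was 0.41 ± 0.26 (adjusted p = 0.194) with Pax3GR, 1.89 ± 0.26 (adjusted p = 1.38e-05) with Zic1GR and 1.10 ± 0.26 (adjusted p = 0.00202) with the combination. That of mcm4.L was 0.31 ± 0.22 (adjusted p = 0.251) with Pax3GR, 1.28 ± 0.22 (adjusted p = 0.000122) with Zic1GR and 0.81 ± 0.22 (adjusted p = 0.0056) with the combination. Neither Pax3GR value passed the test. The copies mcm5.S and mcm6.2.S rose with Zic1GR, by 0.77 and 1.11. For mcm6.2.S the adjusted p was 0.0247, and 0.0601 without Zic1GR replicate 4 or without GR replicate 3. The exception was mcm6.L, which fell by 0.41 with Zic1GR and fell by 0.40 with the combination (adjusted p = 0.0357 and 0.0455). The single mcm3 probe set, mcm3.L, was called in no comparison. Its differences were 0.49, -0.59 and -0.26.

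Origin recognition genes were mixed. With Zic1GR orc1.L rose by 1.22, orc3.S by 1.07 and orc5.L by 2.07 (adjusted p = 0.02 for orc5.L), and with the combination orc1.L rose by 1.13 and orc3.S by 0.79. The orc5.L arrays split within Zic1GR caps. They read 6.54, 6.13, 5.16, 6.92 and 5.60 in Pax3GR caps, 8.08, 7.98, 7.89, 8.64 and 4.06 in Zic1GR caps and 7.71, 6.59, 5.47, 6.10 and 5.21 in combination caps, against 5.59, 5.54, 4.33, 5.97 and 4.87 in GR caps. Zic1GR replicate 5 lay below every GR cap, and the other 4 lay above all of them. With Pax3GR orc6.L rose by 0.46. The subunit gene orc4.L moved the other way with Pax3GR. Its levels were 5.84, 7.68, 7.72, 7.21 and 7.97 in Pax3GR caps, 8.77, 8.71, 8.43, 8.68 and 8.13 in Zic1GR caps and 6.78, 7.64, 7.60, 7.92 and 7.32 in combination caps, against 8.02, 8.21, 7.93, 8.49 and 8.42 in GR caps. In Pax3GR caps 4 of 5 arrays lay below all GR arrays, with replicate 1 lowest, and Zic1GR caps overlapped GR caps. The difference of orc4.L was -0.93 ± 0.31 (adjusted p = 0.0195) with Pax3GR, 0.33 ± 0.31 (adjusted p = 0.392) with Zic1GR and -0.76 ± 0.31 (adjusted p = 0.0572) with the combination, and without Pax3GR replicate 1 it was -0.57 (adjusted p = 0.034). The repair helicase gene mcm9.L rose with Pax3GR and the combination, by 1.26 and 1.41. Its Zic1GR difference was 0.72 (adjusted p = 0.0551). The members cdc6.S, mcm3.L and orc2.S were the genes of this role called in none of the 3.

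**Figure D3:**
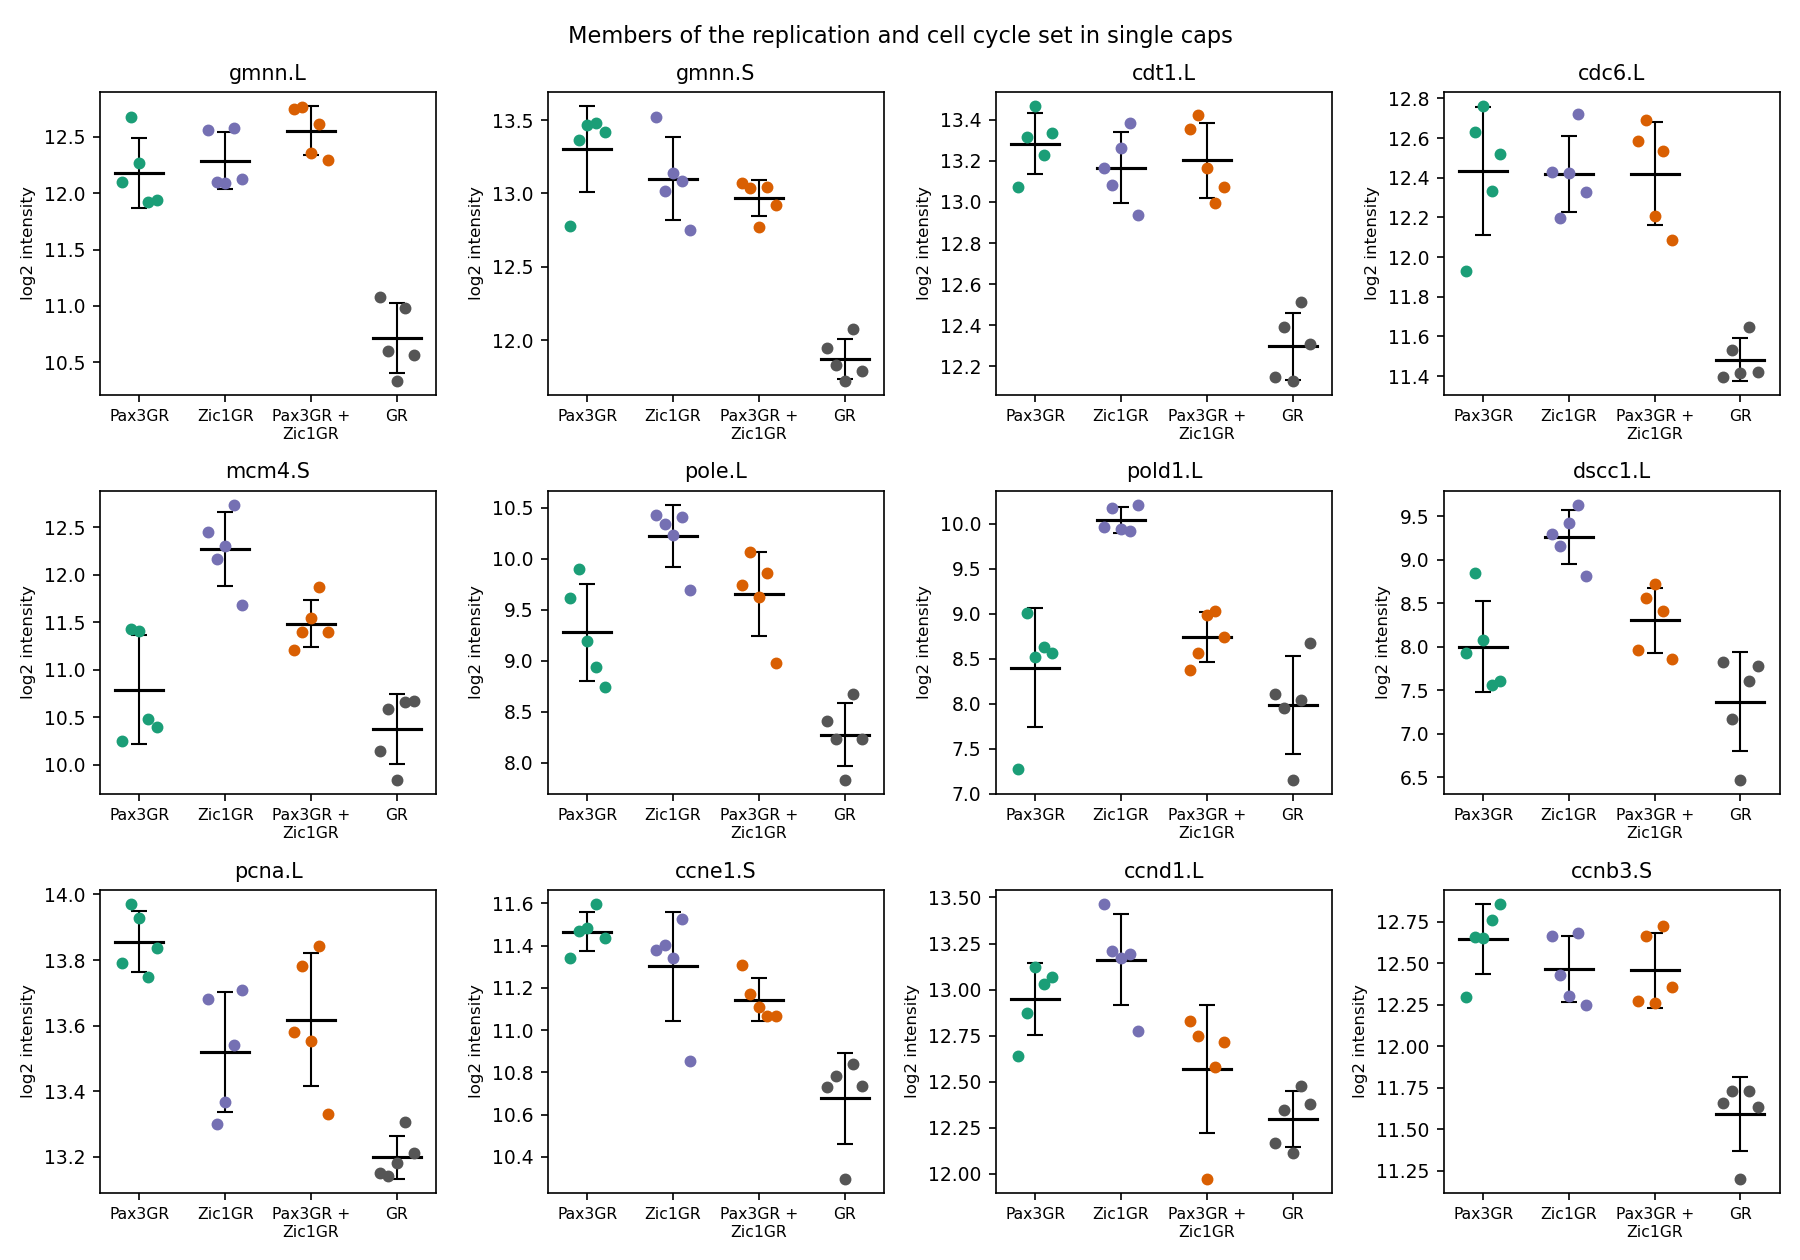
Log2 intensity (y axis) of 12 members in Pax3GR, Zic1GR, combination and GR caps (x axis). Points are single arrays, bars are means and whiskers 1 SD over 5 arrays, and each panel has its own scale that does not start at 0. Geminin (gmnn.L, gmnn.S), cdt1.L, cdc6.L and ccnb3.S separate all injected caps from GR caps, as do pole.L and ccne1.S by narrow margins. The pold1.L panel separates Zic1GR caps from all others.

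Of the 8 genes for the step that turns Mcm into the working helicase, 2 rose with Pax3GR (25%, background 27.3%), 3 with Zic1GR (37.5%, background 28.6%) and 2 with the combination (25%, background 24.6%), so the shares with Pax3GR and the combination were near the background. For cdc45.L the differences were 0.68 ± 0.22 (adjusted p = 0.0145) with Pax3GR, 1.11 ± 0.22 (adjusted p = 0.000507) with Zic1GR and 0.55 ± 0.22 (adjusted p = 0.049) with the combination. The combination call of cdc45.L was lost without any of 14 single arrays, with adjusted p up to 0.148. The GINS subunit gene gins1.S rose by 0.96, 1.07 and 0.98, and its calls with Pax3GR and the combination were lost without any of 5 and 3 single arrays, at adjusted p up to 0.0721 and 0.0736. The GINS subunit gene gins2.L stood out in Zic1GR caps. It read 9.36, 9.65, 9.52, 9.30 and 9.52 in Pax3GR caps, 10.27, 11.03, 10.87, 10.95 and 8.96 in Zic1GR caps and 9.60, 9.52, 8.86, 9.59 and 9.13 in combination caps, against 9.31, 9.30, 8.86, 9.33 and 9.44 in GR caps. In 4 of 5 Zic1GR caps it was above all other arrays, and Zic1GR replicate 5 lay among GR caps. The gins2.L difference was 0.22 ± 0.30 (adjusted p = 0.559) with Pax3GR, 1.17 ± 0.30 (adjusted p = 0.00352) with Zic1GR and 0.09 ± 0.30 (adjusted p = 0.816) with the combination. The cdc45.S, cdc7.L, gins3.L, gins4.L and mcm10.L genes were called in none of the 3, and gins4.L, the highest of them, had 11.73 ± 0.16 in Pax3GR caps, 11.88 ± 0.07 in Zic1GR caps and 11.69 ± 0.19 in combination caps, against 11.96 ± 0.18 in GR caps (mean ± SD, n = 5 each).

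Polymerase, clamp and loader genes, the next largest of the 6 roles, came next in number. Of 17 such genes 6 rose with Pax3GR, 11 with Zic1GR and 9 with the combination. These were 35.3%, 64.7% and 52.9%, against backgrounds of 27.3%, 28.6% and 24.6%. The catalytic subunit of the leading-strand polymerase epsilon, pole.L, read 9.62, 9.90, 9.20, 8.94 and 8.74 in Pax3GR caps, 10.43, 10.34, 10.24, 10.41 and 9.69 in Zic1GR caps and 9.74, 10.07, 9.63, 9.86 and 8.98 in combination caps, against 8.41, 8.23, 7.83, 8.67 and 8.23 in GR caps. All injected caps exceeded all GR caps. Its difference was 1.0 ± 0.24 (adjusted p = 0.00189) with Pax3GR, 1.95 ± 0.24 (adjusted p = 4.74e-06) with Zic1GR and 1.38 ± 0.24 (adjusted p = 0.000166) with the combination. The catalytic subunit of polymerase delta, pold1.L, read 7.27, 9.01, 8.52, 8.63 and 8.57 in Pax3GR caps, 9.96, 10.18, 9.94, 9.92 and 10.21 in Zic1GR caps and 8.37, 8.57, 8.99, 9.03 and 8.74 in combination caps, against 8.11, 7.96, 7.15, 8.05 and 8.67 in GR caps. Zic1GR caps lay above every other array, and Pax3GR and GR caps overlapped. On pold1.L the difference was 0.41 ± 0.28 (adjusted p = 0.235) with Pax3GR, 2.06 ± 0.28 (adjusted p = 1.54e-05) with Zic1GR and 0.75 ± 0.28 (adjusted p = 0.0369) with the combination. The combination call was lost without any of 6 single arrays, with adjusted p between 0.0549 and 0.116. Pax3GR replicate 1 was the lowest of its group for pold1.L, and without it the Pax3GR difference was 0.70 (adjusted p = 0.0149).

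The clamp and its loaders followed different patterns. The clamp gene pcna.L read 13.79, 13.97, 13.93, 13.75 and 13.84 in Pax3GR caps, 13.68, 13.30, 13.37, 13.54 and 13.71 in Zic1GR caps and 13.58, 13.78, 13.55, 13.84 and 13.33 in combination caps, against 13.15, 13.14, 13.18, 13.31 and 13.21 in GR caps. Pax3GR caps were the highest, and both Pax3GR and combination caps lay above all GR caps, while Zic1GR caps met them. The pcna.L difference was 0.66 ± 0.11 (adjusted p = 6.59e-05) with Pax3GR, 0.32 ± 0.11 (adjusted p = 0.0182) with Zic1GR and 0.42 ± 0.11 (adjusted p = 0.00401) with the combination. The Zic1GR call had an adjusted p of 0.052 without Zic1GR replicate 1. The copy pcna.S had differences of 0.21, 0.37 and 0.48, of which the combination's passed the test (adjusted p = 0.0416, and up to 0.129 without any of 7 single arrays). The loader subunit genes rfc2.L and rfc5.S rose in all 3 groups, rfc2.L by 1.10, 1.40 and 1.35, and rfc4.L rose with Zic1GR and the combination, by 1.08 and 0.53.

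The loader subunit gene rfc3.L passed the test with Pax3GR. It was weakly expressed and read 5.43, 6.37, 5.39, 6.14 and 6.09 in Pax3GR caps, 5.05, 5.18, 3.02, 3.72 and 4.64 in Zic1GR caps and 4.40, 5.34, 4.26, 5.67 and 4.59 in combination caps, against 4.30, 4.09, 4.51, 4.86 and 4.62 in GR caps. The 5 Pax3GR caps lay above all Zic1GR and all GR caps. The difference was 1.41 ± 0.38 (adjusted p = 0.00454) with Pax3GR, -0.15 ± 0.38 (adjusted p = 0.764) with Zic1GR and 0.38 ± 0.38 (adjusted p = 0.435) with the combination, and 2 Zic1GR arrays were below log2 4. A gene of an alternative loader with a role in sister chromatid cohesion, dscc1.L, read 7.93, 8.85, 8.07, 7.56 and 7.60 in Pax3GR caps, 9.29, 9.16, 9.42, 9.63 and 8.81 in Zic1GR caps and 7.96, 8.56, 8.72, 8.41 and 7.87 in combination caps, against 7.82, 7.17, 6.47, 7.61 and 7.78 in GR caps. Zic1GR and combination caps lay above all GR caps. The dscc1.L difference was 0.63 ± 0.28 (adjusted p = 0.0693) with Pax3GR, 1.89 ± 0.28 (adjusted p = 3.53e-05) with Zic1GR and 0.93 ± 0.28 (adjusted p = 0.0117) with the combination. Among the other polymerase subunit genes pola1.S rose in all 3 groups, by 0.41, 0.49 and 0.46. The genes pold2.L, pole3.L and pole4.L rose with Zic1GR by 0.65, 0.22 and 0.36. The pola2.L, pold3.L, pole2.L and rfc5.L genes were called in none of the 3, with pola2.L at -0.33, -0.30 and -0.28.

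Genes of the G1 cyclins rose where they changed. Of 8 D and E cyclin genes 4 rose with Pax3GR, 4 with Zic1GR and 2 with the combination. These were 50%, 50% and 25%, against backgrounds of 27.3%, 28.6% and 24.6%, so the share with the combination was near the background. The cyclin D1 gene ccnd1.L read 12.64, 12.87, 13.12, 13.03 and 13.07 in Pax3GR caps, 13.47, 13.21, 13.17, 13.19 and 12.78 in Zic1GR caps and 12.83, 12.75, 11.97, 12.58 and 12.71 in combination caps, against 12.17, 12.35, 12.11, 12.48 and 12.38 in GR caps. Pax3GR and Zic1GR caps lay above all GR caps, and combination caps overlapped them, with combination replicate 3 below every GR cap. Its difference was 0.65 ± 0.16 (adjusted p = 0.00238) with Pax3GR, 0.87 ± 0.16 (adjusted p = 0.000265) with Zic1GR and 0.27 ± 0.16 (adjusted p = 0.175) with the combination. The ccnd1.S copy rose with Zic1GR, by 0.56 (adjusted p = 0.017, and 0.0536 without Zic1GR replicate 1).

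Cyclin D2 had the largest rise among these cyclins. On ccnd2.L the arrays read 7.63, 8.07, 7.27, 7.66 and 7.69 in Pax3GR caps, 7.49, 7.33, 7.68, 7.17 and 6.47 in Zic1GR caps and 8.34, 8.46, 5.94, 6.45 and 6.49 in combination caps, against 6.47, 6.0, 6.06, 6.18 and 5.91 in GR caps. Pax3GR caps lay above all GR caps, and combination caps split into 2 high (replicates 1 and 2) and 3 near GR caps. The ccnd2.L difference was 1.54 ± 0.40 (adjusted p = 0.00368) with Pax3GR, 1.11 ± 0.40 (adjusted p = 0.0283) with Zic1GR and 1.02 ± 0.40 (adjusted p = 0.0465) with the combination. The Zic1GR and combination calls were lost without any of 6 and 15 single arrays, with adjusted p up to 0.0655 and 0.141. The cyclin E1 gene ccne1.S read 11.34, 11.47, 11.48, 11.60 and 11.44 in Pax3GR caps, 11.38, 11.41, 11.34, 11.53 and 10.85 in Zic1GR caps and 11.31, 11.17, 11.11, 11.07 and 11.06 in combination caps, against 10.73, 10.78, 10.30, 10.84 and 10.74 in GR caps. Every injected cap exceeded every GR cap, although Zic1GR replicate 5 did so by a narrow margin. Its difference was 0.79 ± 0.12 (adjusted p = 5.02e-05) with Pax3GR, 0.63 ± 0.12 (adjusted p = 0.000537) with Zic1GR and 0.47 ± 0.12 (adjusted p = 0.00555) with the combination. The cyclin E2 gene ccne2.L rose with Pax3GR by 1.17 (adjusted p = 0.0197, and 0.0546 and 0.057 without Pax3GR replicates 3 and 5). The ccnd2.S, ccne1.L and ccne2.S copies were called in none of the 3, with ccne2.S at 0.46, 0.20 and 0.20. Without Pax3GR replicate 1 the Pax3GR differences of ccne1.L and ccne2.S were 0.61 and 0.60 and passed the test (adjusted p = 0.0367 and 0.0211).

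Of 12 A and B cyclin and cdc20 genes 3 rose with Pax3GR (25%, background 27.3%), 7 with Zic1GR (58.3%, background 28.6%) and 2 with the combination (16.7%, background 24.6%). In each comparison 2 fell (16.7%, backgrounds 23.0%, 22.8% and 20.3%). The shares were at or below the background except for the rises with Zic1GR. In Xenopus cyclin A1 is the form of early cleavage and cyclin A2 the form of later development. The cyclin A2 gene ccna2.L read 12.27, 12.65, 12.44, 12.46 and 12.49 in Pax3GR caps, 12.90, 12.99, 13.05, 13.25 and 12.76 in Zic1GR caps and 12.44, 12.80, 12.20, 12.28 and 12.31 in combination caps, against 11.84, 11.76, 11.75, 11.94 and 11.60 in GR caps. Injected caps lay above all GR caps, and Zic1GR caps also lay above all Pax3GR caps. The ccna2.L difference was 0.69 ± 0.12 (adjusted p = 0.000143) with Pax3GR, 1.21 ± 0.12 (adjusted p = 4.27e-07) with Zic1GR and 0.63 ± 0.12 (adjusted p = 0.000441) with the combination. The cyclin B3 gene ccnb3.S read 12.30, 12.66, 12.65, 12.76 and 12.86 in Pax3GR caps, 12.66, 12.43, 12.30, 12.68 and 12.25 in Zic1GR caps and 12.27, 12.67, 12.26, 12.73 and 12.36 in combination caps, against 11.66, 11.73, 11.20, 11.73 and 11.63 in GR caps. All injected caps again exceeded the GR caps. Its difference was 1.06 ± 0.14 (adjusted p = 9.32e-06) with Pax3GR, 0.88 ± 0.14 (adjusted p = 8.42e-05) with Zic1GR and 0.87 ± 0.14 (adjusted p = 0.000101) with the combination.

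The remaining B cyclin genes had smaller differences. With Zic1GR ccnb1.2.L rose by 0.23, ccnb2.L by 0.33 and ccnb2.S by 0.31, and ccnb2.S rose by 0.25 with Pax3GR. The ccnb3.L call with Zic1GR (0.38, adjusted p = 0.0453) was lost without any of 10 single arrays, with adjusted p up to 0.119. Both copies of cdc20, the activator of the anaphase-promoting complex, and ccnb1.2.S were called in none of the 3. The cdc20.S level was 13.25 ± 0.14 in Pax3GR caps, 13.29 ± 0.12 in Zic1GR caps and 13.33 ± 0.11 in combination caps, against 13.18 ± 0.06 in GR caps.

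Kinase genes moved in both directions. Of 6 kinase genes 4 rose and 1 fell with Zic1GR, 2 rose and 2 fell with the combination, and 1 fell with Pax3GR, where none passed as higher in limma and 2 were higher at an unadjusted p under 0.05. The shares higher were 0%, 66.7% and 33.3% with Pax3GR, Zic1GR and the combination (backgrounds 27.3%, 28.6% and 24.6%). The shares lower were 16.7%, 16.7% and 33.3% (backgrounds 23.0%, 22.8% and 20.3%). The gene cdk2, partner of cyclins E and A, rose in both copies with Zic1GR and the combination. On cdk2.S the arrays read 10.55, 11.36, 11.31, 11.31 and 11.15 in Pax3GR caps, 11.52, 11.58, 11.54, 11.71 and 11.63 in Zic1GR caps and 11.19, 11.40, 11.55, 11.43 and 11.48 in combination caps, against 10.87, 10.85, 10.28, 10.92 and 11 in GR caps. Zic1GR and combination caps lay above all GR caps. Pax3GR replicate 1 lay among the GR caps, and the other 4 Pax3GR caps lay above them. The cdk2.S difference was 0.35 ± 0.15 (adjusted p = 0.0651) with Pax3GR, 0.81 ± 0.15 (adjusted p = 0.000334) with Zic1GR and 0.63 ± 0.15 (adjusted p = 0.0031) with the combination, and without Pax3GR replicate 1 the Pax3GR difference was 0.50 (adjusted p = 0.00296). With the combination cdk2.L rose by 0.54 (adjusted p = 0.0308, and up to 0.0903 without any of 5 single arrays). With Zic1GR cdk4.S and cdk6.L, partners of D cyclins, rose by 0.30 and 0.89.

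The mitotic kinase gene moved down by a small amount. On cdk1.S the arrays read 12.73, 12.66, 12.56, 12.62 and 12.59 in Pax3GR caps, 12.82, 12.63, 12.69, 12.69 and 12.58 in Zic1GR caps and 12.64, 12.79, 12.48, 12.66 and 12.64 in combination caps, against 12.75, 13.07, 13.23, 12.98 and 12.94 in GR caps. Pax3GR caps lay below all GR caps, and 1 Zic1GR and 1 combination cap lay within the range of GR caps. The cdk1.S difference was -0.36 ± 0.09 (adjusted p = 0.0032) with Pax3GR, -0.31 ± 0.09 (adjusted p = 0.00948) with Zic1GR and -0.35 ± 0.09 (adjusted p = 0.00477) with the combination. The cdk1.L copy fell by 0.79 with the combination (adjusted p = 0.00582), and its Pax3GR and Zic1GR differences of -0.20 and -0.46 did not pass the test.

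Besides cdk1.S, the members that fell in all 3 injected groups were both cyclin A1 copies, cdk7.L and cdk20.S. The cyclin A1 gene ccna1.S read 9.73, 6.37, 6.04, 5.94 and 6.68 in Pax3GR caps, 5.21, 4.50, 7.75, 6.82 and 8.04 in Zic1GR caps and 7.72, 6.43, 7.07, 6.46 and 7.25 in combination caps, against 10.58, 10.65, 11.62, 10.14 and 10.77 in GR caps. All injected caps lay below all GR caps. The ccna1.S difference was -3.80 ± 0.71 (adjusted p = 0.000251) with Pax3GR, -4.29 ± 0.71 (adjusted p = 0.000101) with Zic1GR and -3.77 ± 0.71 (adjusted p = 0.000372) with the combination. The copy ccna1.L read 10.01, 6.46, 6.11, 5.87 and 5.86 in Pax3GR caps, 5.23, 5.0, 6.18, 5.31 and 5.82 in Zic1GR caps and 7.52, 6.49, 6.28, 5.57 and 7.02 in combination caps, against 8.15, 8.06, 11.10, 8.82 and 9.95 in GR caps. Zic1GR and combination caps lay below all GR caps, and Pax3GR replicate 1 lay among them. The ccna1.L difference was -2.35 ± 0.72 (adjusted p = 0.0108) with Pax3GR, -3.71 ± 0.72 (adjusted p = 0.000415) with Zic1GR and -2.64 ± 0.72 (adjusted p = 0.00637) with the combination. A kinase gene linked to cilia in mammals, cdk20.S, read 6.04, 3.09, 2.78, 2.46 and 2.77 in Pax3GR caps, 3.67, 3.10, 4.58, 3.67 and 4.33 in Zic1GR caps and 3.74, 3.09, 3.24, 2.42 and 4.30 in combination caps, against 7.65, 7.97, 9.24, 7.54 and 7.97 in GR caps. No injected cap came near a GR cap, and 11 of the 15 injected arrays were below log2 4, so the size of the fall is not measured. It passed the filter through the GR arrays, and no test is read for it. The gene cdk7.L, which encodes the kinase that activates other Cdks and works in the transcription factor TFIIH, read 12.72, 11.58, 10.93, 11.07 and 11.39 in Pax3GR caps, 11.01, 11.25, 11.52, 11.82 and 12.25 in Zic1GR caps and 11.81, 11.78, 11.19, 10.94 and 12.07 in combination caps, against 12.59, 13, 13.23, 12.90 and 13.03 in GR caps. It fell by 1.41, 1.38 and 1.39 in Pax3GR, Zic1GR and combination caps (adjusted p = 0.000987, 0.00138 and 0.00149).

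The arrays high for these 4 genes were set beside the levels of multiciliated cell markers. The mean level of the 10 markers was 4.15 to 10.46 in Pax3GR caps, 5.25 to 8.91 in Zic1GR caps and 4.69 to 9.06 in combination caps, against 10.74 to 11.82 in GR caps. The highest Pax3GR array was replicate 1, which was also the highest Pax3GR array for ccna1.L, ccna1.S, cdk20.S and cdk7.L. The highest GR array was replicate 3, which was also the highest GR array for all 4 genes. In Zic1GR caps the markers were highest on replicate 3, as were ccna1.L and cdk20.S, while ccna1.S and cdk7.L were highest on replicate 5. In combination caps the markers were highest on replicate 1, as were both ccna1 copies, while cdk20.S and cdk7.L were highest on replicate 5. Ionocyte markers were highest on replicates 1, 5, 5 and 3 of Pax3GR, Zic1GR, combination and GR caps, as was cdk7.L. Epidermis markers were highest on replicates 1, 5, 5 and 4 in the same order. Without Pax3GR replicate 1 the differences with Pax3GR were -3.14 for ccna1.L, -4.50 for ccna1.S and -1.71 for cdk7.L (adjusted p = 8.87e-05, 6.76e-06 and 3.23e-05). Of the defining markers foxj1.L, the master regulator of motile cilia, was below log2 4 on 4 Pax3GR, 4 Zic1GR and 5 combination arrays, and tekt2.L, a microtubule protein of the cilium, on 3, 5 and 3. The marker mcidas.S, a regulator related to geminin, was below it on 3, 2 and 2 arrays, and all of these were above it on every GR array. The part of multiciliated cells, ionocytes or other epidermal cells in the falls was not tested.

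**Figure D4:**
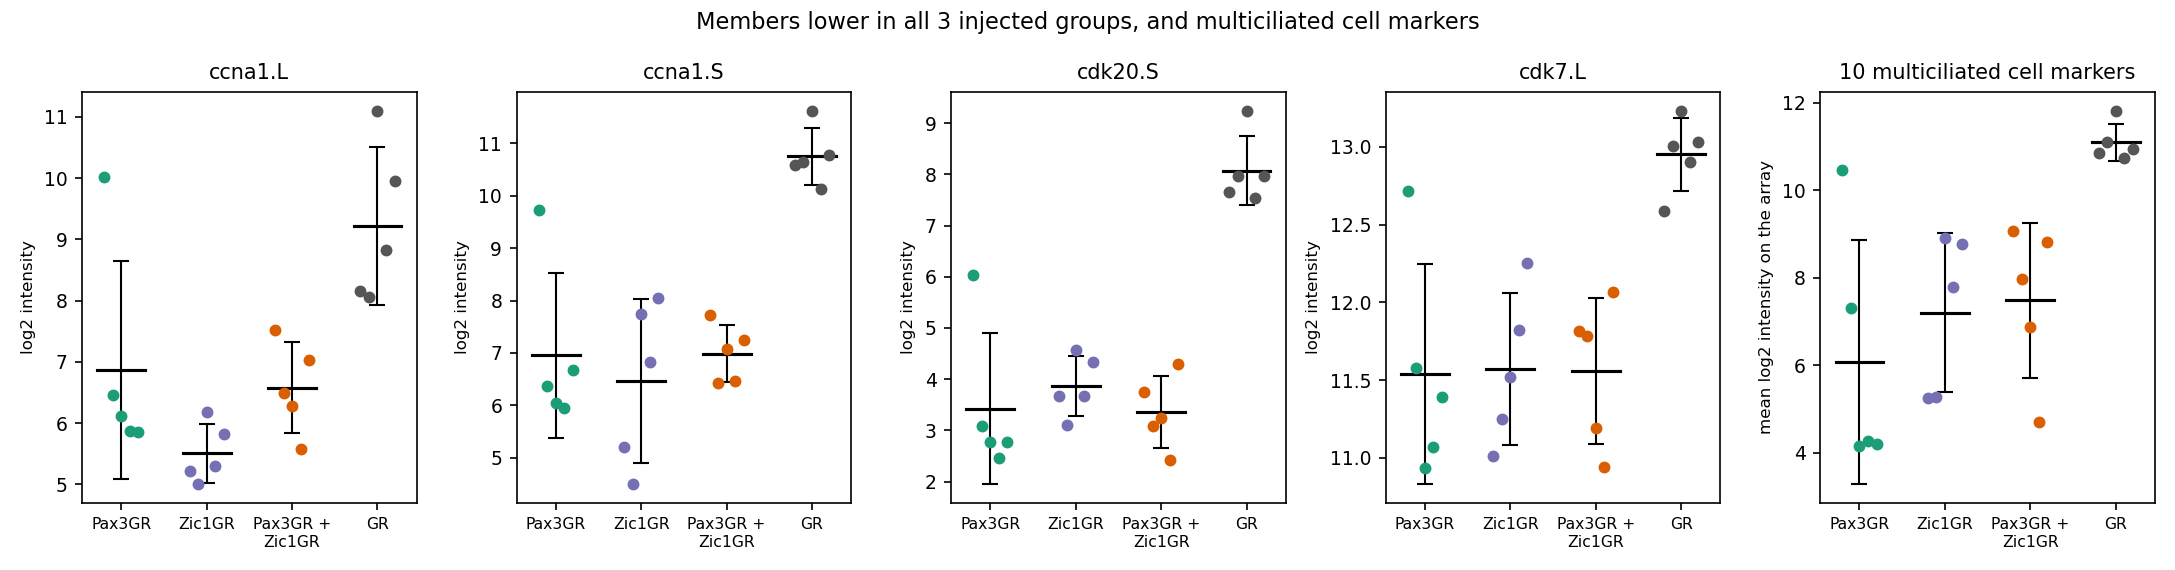
Log2 intensity (y axis) of ccna1.L, ccna1.S, cdk20.S and cdk7.L, and the mean of 10 multiciliated cell markers (right), in Pax3GR, Zic1GR, combination and GR caps (x axis). Points are single arrays, bars are means and whiskers 1 SD over 5 arrays, and scales do not start at 0. In every panel GR caps are the highest group, and the top Pax3GR point is replicate 1.

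Of the 19 further Cdk-family and prefix genes 6 rose and 4 fell with Pax3GR (31.6% and 21.1%, backgrounds 27.3% and 23.0%). With Zic1GR 5 rose and 3 fell (26.3% and 15.8%, backgrounds 28.6% and 22.8%), and with the combination 4 rose and 2 fell (21.1% and 10.5%, backgrounds 24.6% and 20.3%), so these shares were near or below the background. The kinase genes cdk5.L, cdk9.L, cdk10.L and cdk11b.S rose in all 3 groups, but the 2 probe sets of cdk9.L gave opposite calls with Zic1GR. For cdk5.L, which encodes a kinase known from neurons, the differences were 0.85, 1.46 and 1.13. The gene cdk5rap3.L, for a protein of the UFM1 modification pathway, read 7.60, 7.08, 7.35, 7.08 and 6.28 in Pax3GR caps, 8.12, 9.02, 8.76, 8.10 and 7.66 in Zic1GR caps and 7.57, 7.76, 8.82, 8.08 and 8.60 in combination caps, against 8.39, 8.66, 8.02, 8.53 and 7.79 in GR caps. Pax3GR caps lay below all Zic1GR and all GR caps. The cdk5rap3.L difference was -1.20 ± 0.30 (adjusted p = 0.00287) with Pax3GR, 0.05 ± 0.30 (adjusted p = 0.901) with Zic1GR and -0.11 ± 0.30 (adjusted p = 0.791) with the combination. The copy cdk5rap3.S was weak and reached log2 4 on 8 of 20 arrays, all 5 GR arrays, 1 Zic1GR array and 2 combination arrays. It passed the filter through the GR arrays, and no size or test is read for it. The gene cdk5rap1.L, for a mitochondrial tRNA-modifying enzyme, rose with Pax3GR by 1.42 (adjusted p = 0.00726). In the same 19, cdk16.L, cdk17.S, cdk2ap1.S, cdk8.S, cdk9.S, poldip2.L, poldip2.S and poldip3.L were called in none of the 3. A second, weaker probe set of cdk16.L was called higher with Zic1GR and the combination, by 1.14 and 1.26. That of cdk17.S was called higher with Pax3GR, by 0.73.

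Low signal touched few members. Besides cdk20.S and cdk5rap3.S, the probe sets of cdc45.S and ccnd2.S reached log2 4 on only 6 and 9 of 20 arrays, rfc3.L on 18 and cdk5rap1.L on 19. Every other member reached it on all 20. 

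Copies of a gene did not always share a call. Both copies of 25 genes were members. With Pax3GR both copies rose for 2 genes and fell for 2, only 1 copy was called for 16, and neither was called for 5. With Zic1GR both rose for 10 and fell for 1, 1 copy was called for 10 and neither for 4. With the combination the numbers were 5, 2, 10 and 8. No pair was called in opposite directions in any of the 3. The same was not counted over all .L and .S pairs on the array, so these counts are not read as particular to the members. In pairs where 1 copy passed and the other did not, a difference between copies was not tested.

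**Figure D5:**
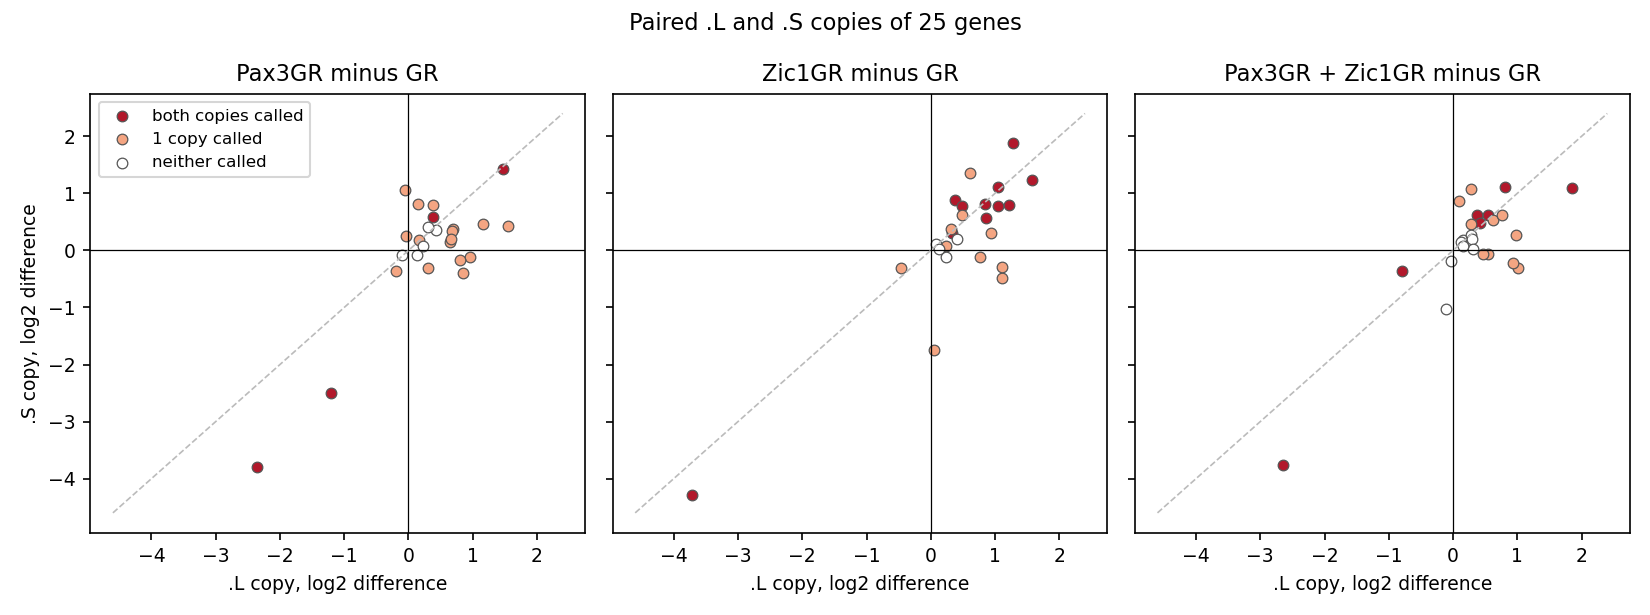
Log2 difference from GR caps of the .L copy (x axis) and the .S copy (y axis) of 25 genes, in Pax3GR, Zic1GR and combination caps. Points are genes, coloured by how many of the 2 copies had an adjusted p under 0.05, and the dashed line marks equal differences. The pair far to the lower left in each panel is ccna1, and Zic1GR has the most pairs with both copies called, 10 higher and 1 lower.

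Of the member symbols 15 had more than 1 probe set tested. Their probe sets gave the same call for 11 symbols with Pax3GR, 8 with Zic1GR and 10 with the combination. Opposite calls occurred for 1 symbol in 1 comparison, cdk9.L with Zic1GR. Its stronger probe set rose by 0.77 and the other fell by 6.89 (adjusted p = 0.0298), with 12 of 20 arrays of the other at log2 4 or above. The 2 probe sets of cdk7.L both fell in all 3 groups. Of the 3 probe sets of cdt1.L 1 was called higher with Pax3GR only. Their differences lay between 0.41 and 1.08 with Zic1GR and between 0.45 and 0.90 with the combination. The weaker probe set of ccnb3.S had a Zic1GR difference of -0.76 (adjusted p = 0.152), opposite in sign to the value given above. It was called in none of the 3 comparisons, with 0.58 for Pax3GR and 0.36 for the combination (adjusted p = 0.277 and 0.515). The weaker probe set of pole.L, with 8 of 20 arrays at log2 4 or above, rose with Zic1GR by 2.33. Its Pax3GR and combination differences of 0.72 and 0.80 did not pass the test (adjusted p = 0.0872 and 0.0666).

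Compared directly with Zic1GR caps, Pax3GR caps had 3 members higher (3.19%, background 17.3%) and 21 lower (22.3%, background 17.0%). The median member difference was -0.16, against -0.04 over all probe sets. The members higher in Pax3GR caps were rfc3.L, cdk5rap1.L and pcna.L, by 1.56, 1.14 and 0.34. The pcna.L call was lost without Zic1GR replicate 2 or 3 (adjusted p = 0.0571 and 0.0641), and that of cdk5rap1.L without any of 5 arrays (adjusted p up to 0.11). The count of members higher was 1 without Zic1GR replicate 2 or 3 and 5 without Pax3GR replicate 1. Among those lower in Pax3GR caps pold1.L differed by -1.64 (adjusted p = 0.000205), mcm4.S by -1.48 (adjusted p = 0.000227) and mcm6.2.S by -1.28 (adjusted p = 0.0172). Without Pax3GR replicate 1, the lowest of its group, the mcm6.2.S difference was -0.77 (adjusted p = 0.0077). By role 6 of the 24 origin, Mcm and licensing genes, 5 of the 17 polymerase, clamp and loader genes and 4 of the 12 mitotic cyclin and cdc20 genes were lower in Pax3GR caps, ccna2.L with a difference of -0.52 among them.

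Few members were called between the combination and Pax3GR alone. The combination had 1 member higher (1.06%, background 4.28%), cdk5rap3.L by 1.09, and 1 lower (1.06%, background 5.98%), cdk5rap1.L at -1.36. At an unadjusted p under 0.05 in limma 9 were higher and 8 lower. The adjusted calls were lost without any of 4 and 8 single arrays, at adjusted p up to 0.0847 and 0.12. The count of members higher was 0 without Pax3GR replicate 4 or 5 or combination replicate 3 or 5, and 2 without Pax3GR or combination replicate 2. The count lower was 0 without Pax3GR replicate 4 or 5, combination replicate 1, 3 or 5, or GR replicate 2 or 4, and 2 without Zic1GR replicate 3 or 5 or combination replicate 2 or 4. Without Pax3GR replicate 1 it was 3. For mcm4.S the difference between combination and Pax3GR caps was 0.69, with a 95% interval of 0.16 to 1.23, and for gmnn.L it was 0.38, with an interval of 0.01 to 0.75. Neither passed the test, and both intervals reach past 0.5 on the log2 scale.

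Against Zic1GR alone the combination had 9 members lower (9.57%, background 6.25%). None passed as higher in limma (background 7.05%), and 2 did at an unadjusted p under 0.05. The 3 with the largest differences were pold1.L at -1.30 (adjusted p = 0.0038), orc4.L at -1.09 (adjusted p = 0.0263) and gins2.L at -1.08 (adjusted p = 0.0211). The orc4.L and gins2.L calls were lost without any of 5 and 4 single arrays, at adjusted p up to 0.068 and 0.0671. The other 6 were ccna2.L, ccnb1.2.L, ccnd1.L, dscc1.L, mcm4.S and rfc4.L, with differences between -0.96 and -0.26. The count was 4 without Zic1GR replicate 1 or 4, and 5 without Zic1GR replicate 3 or without combination replicate 1 or 5.

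The combined effect was mostly less than the sum of the single effects. Non-additivity, the combination's difference from GR minus the sum of the 2 single differences on the log2 scale, was below 0 for 33 members (35.1%, background 19.6%) and above 0 for 5 (5.32%, background 17.0%) among those that passed the test. The median over members was -0.46, against -0.12 over all probe sets. It was -1.56 ± 0.21 (SE) for gmnn.S (adjusted p = 2.8e-05), -1.27 ± 0.17 for ccna2.L (adjusted p = 3.15e-05) and -1.72 ± 0.40 for pold1.L (adjusted p = 0.00327). The 5 members above 0 were ccna1.L, ccna1.S, cdk20.S, cdk7.L and cdk5rap3.S, all genes that fell in at least 2 of the 3 injected groups. For all of these but cdk7.L the sum of the 2 single differences would put the level below log2 4 (3.15 for ccna1.L and 2.66 for ccna1.S), so a value of 0 or below could hardly have been measured for them. No value is read for cdk20.S and cdk5rap3.S, which lay below log2 4 on most injected arrays, and without them 3 members were above 0. Without Pax3GR replicate 1 there were 8 above 0. For cdk7.L it was 1.40 ± 0.44 (adjusted p = 0.0189). This contrast uses all 4 groups, so it shares arrays with every comparison above.

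Genes of the same pathways that the name rule does not take in were read from 5 further lists with 134 genes tested. Of these 72 rose and 7 fell with Pax3GR, 76 rose and 4 fell with Zic1GR, and 64 rose and 6 fell with the combination (53.7%, 56.7% and 47.8% higher, 5.22%, 2.99% and 4.48% lower, against the same backgrounds as above). Their mean level per array was 10.233 to 10.671 in Pax3GR caps, 10.382 to 10.727 in Zic1GR caps and 10.35 to 10.595 in combination caps, against 9.9252 to 10.107 in GR caps, with no overlap. Here too means over all probe sets were not set beside these.

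Further replication factors rose in all injected groups. Of 26 such genes 14, 19 and 14 rose with Pax3GR, Zic1GR and the combination (53.8%, 73.1% and 53.8%, backgrounds 27.3%, 28.6% and 24.6%). The single-strand DNA binding subunit gene rpa2.S had 9.65 ± 0.72 in Pax3GR caps, 9.28 ± 0.79 in Zic1GR caps and 9.63 ± 0.62 in combination caps, against 6.0 ± 0.78 in GR caps (n = 5 each), a rise of 3.64, 3.27 and 3.63. Its copy rpa2.L rose by 1.03, 1.29 and 1.31, and the initiation factor gene mtbp.S by 1.21, 0.89 and 1.17. Of 7 genes of nucleotide supply and maintenance methylation 2, 4 and 2 rose (28.6%, 57.1% and 28.6%). The shares with Pax3GR and the combination were near the background. The chromatin remodeller gene hells.L, which acts in DNA methylation, rose by 0.85, 1.23 and 1.09, and the dUTPase gene dut.L fell by 0.39 with Pax3GR and 0.32 with the combination.

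Mitosis genes formed the largest list, and 45, 42 and 36 of 75 rose with Pax3GR, Zic1GR and the combination. These were 60%, 56% and 48%, against backgrounds of 27.3%, 28.6% and 24.6%. The kinetochore gene nuf2.S rose by 1.54, 1.57 and 1.45 and the chromosome motor gene kif4a.S by 1.52, 1.79 and 1.16. The gene of the Cdk1-inhibiting kinase Wee1, wee1.S, had 12.74 ± 0.09 in Pax3GR caps, 11.60 ± 0.33 in Zic1GR caps and 12.41 ± 0.18 in combination caps, against 11.69 ± 0.08 in GR caps. It rose with Pax3GR and the combination, by 1.06 and 0.72, and its Zic1GR difference was -0.08. The centromeric histone gene cenpa.L rose with Pax3GR by 1.14. Against this direction plk4.L, which encodes the kinase of centriole duplication, fell by 1.37, 1.25 and 1.17. Multiciliated and ionocyte markers were low in the same groups. The part of those cells in it was not tested.

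Regulators of the G1/S step gave the largest differences within the 5 pathway lists. Of 18 inhibitor and G1/S transcription genes 8, 7 and 8 rose and 3, 2 and 2 fell with Pax3GR, Zic1GR and the combination. The shares higher were 44.4%, 38.9% and 44.4% (backgrounds 27.3%, 28.6% and 24.6%). The shares lower were 16.7%, 11.1% and 11.1% (backgrounds 23.0%, 22.8% and 20.3%). The growth regulator gene mycn.S had 11.48 ± 1.16 in Pax3GR caps, 9.96 ± 1.09 in Zic1GR caps and 10.60 ± 1.32 in combination caps, against 5.43 ± 1.25 in GR caps. It rose by 6.05, 4.53 and 5.17, and mycn.L rose by 4.69, 5.14 and 2.89. The gene myc.S rose by 0.99, 2.25 and 1.46, while myc.L fell by 0.73 with Pax3GR. The Cdk inhibitor p21 gene cdkn1a.L had 3.33 ± 0.61 in Pax3GR caps, 3.03 ± 0.11 in Zic1GR caps and 3.05 ± 0.49 in combination caps, against 5.76 ± 0.78 in GR caps. It was below log2 4 on 14 of the 15 injected arrays and passed the filter through the GR arrays, so it is counted among the genes that fell but no test is read for it. The inhibitor gene cdkn2d.S fell by 0.84, 1.19 and 1.72, and skp2.L, for the ubiquitin ligase subunit that marks Cdk inhibitors for destruction, rose by 0.44, 0.91 and 0.62. Of 8 checkpoint genes 3, 4 and 4 rose (37.5%, 50% and 50%, against the same backgrounds). The ATR partner gene atrip.L rose by 1.67, 0.76 and 1.30, and atr.L itself was called in none of the 3, with -0.21, -0.06 and 0.07.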

How the data were processed

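RNA of 20 single Xenopus laevis animal caps was measured on Affymetrix arrays, 5 per group, with 1 explant per array. Values deposited by the authors are log2 intensities per probe set, made with GCRMA and Partek, per the submitters' processing notes, which give no versions or order. Array medians and the number of probe sets at log2 4 were even, and 5 arrays per group limit the precision. Nothing in the labels says that replicates came from separate clutches, so p-values measure the spread between these explants.

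From these values the 4 group means were estimated over all 20 arrays in 1 linear model with limma 3.58.1 in R 4.3.3 (lmFit, eBayes), for 20519 probe sets with log2 4 or more on at least 5 of 20 arrays. The 96 control probe sets were left out. Of 7 comparisons, 3 set an injection against GR, 2 set the combination against a single factor, 1 set Pax3GR against Zic1GR, and 1 tested non-additivity. Benjamini-Hochberg adjusted p was taken over all probe sets tested, with a threshold of 0.05. The fit was tested on simulated data. The ± values beside differences are standard errors, and 95% intervals come from the same fit. Symbols are those of the array annotation, and all 94 members were found under the same symbol in the reference gene table. Figures were drawn with matplotlib 3.10.9 in Python 3.11.15.

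Members, roles and lists were chosen with earlier results of these data known. The rule for named members took pcna, gmnn, cdt1 and ccnd1, the 2 called members per role and comparison with GR with the largest difference whose groups do not overlap, the highest member of each role called in none, the 3 largest in each direction of the other comparisons, and their partner copies, 47 in all. Other members and list genes with values were chosen after their values were seen. The alternatives were other filters, thresholds, scalings, probe set choices and variance models, array weights, only the groups of a comparison, replicate number as a block, and arrays left out singly. Chosen after seeing the data were the pathway lists under these alternatives, the 6 cycle roles alone, counts without members that reached log2 4 on fewer than 5 arrays once 1 group was left out, and role counts without mcm8.L and mcm9.L or with cdk7.L. At the median, equal replicate numbers showed little sign of pairing arrays. Over 30 pairs of arrays with the same number in different groups, deviations from the group means correlated between -0.382 and 0.466, with 8 over 0.1 (median 0.0317, and 0.00863 for different numbers). For some members, though not all, replicates 1 and 2 lay apart from replicates 3 to 5 in both Pax3GR and combination caps. In these 2 groups replicates 1 and 2 were the higher for mcm3.L and the lower for orc2.S. Pairing by equal numbers cannot show such a shared subgroup. Whether these arrays shared a clutch or batch is not given in the labels and was not tested. Promoters were not searched for motifs.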

Additional observations from a re-analysis of the deposited data

Results flagged for a closer look

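In 25 of 188 sets of 5 arrays for the 47 named members, 1 array stood far from the other 4 of its group by Dixon's test, where chance gives about 1 in 20. Of these 10 were on Pax3GR replicate 1. It was the highest Pax3GR array for ccna1.L (10.01, the others 5.86 to 6.46), ccna1.S (9.73) and cdk20.S (6.04). It was the lowest for ccne2.S (12.44), cdk1.L (11.30), cdk2.L (11.35), cdk2.S (10.55), gmnn.S (12.78), mcm6.2.S (9.05) and pold1.L (7.27). Pax3GR replicate 2 was low for ccnd1.S (10.98) and high for cdc45.L (10.96) and gins4.L (12). GR replicate 3 was low for ccnb3.S (11.20), ccne1.S (10.30), cdk2.S (10.28), gins2.L (8.86) and mcm6.2.L (10.93), and high for cdk20.S (9.24). Zic1GR replicate 5 was low for ccne1.L (9.56), ccne1.S (10.85), gins1.S (10.46) and pole.L (9.69), and high for cdk5rap3.S (4.67). Combination replicate 4 was high for cdc45.S (4.37). All values are log2 intensities.

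For 23 of the 47 named members the effect of Zic1GR in caps that also had Pax3GR differed from its effect in caps without it, by the test of that difference in limma (adjusted p under 0.05). It was less in the presence of Pax3GR for 18 of them. Over all probe sets tested the contrast was called below 0 for 19.6% and above 0 for 17.0%. Named members were chosen partly by this contrast and by differences that share its arrays. Their count and direction are therefore not read as a result about the set. The differences on the log2 scale were -1.20 for gmnn.L, -1.56 for gmnn.S, -0.95 for cdt1.L, -0.95 for cdc6.L, -1.20 for mcm4.S and -1.09 for mcm6.2.L among licensing genes. In helicase activation they were -1.24 for cdc45.L and -1.30 for gins2.L. Among polymerase, clamp and loader genes they were -1.57 for pole.L, -1.72 for pold1.L, -0.56 for pcna.L and -1.16 for rfc2.L. Among cyclins and kinases they were -1.25 for ccnd1.L, -1.63 for ccnd2.L, -0.95 for ccne1.S, -1.06 for ccnb3.S and -0.73 for cdk2.L, and outside the cycle -1.63 for cdk5rap1.L. It was positive for some of the genes that fell against GR, 3.42 for ccna1.L, 4.32 for ccna1.S, 4.14 for cdk20.S, 1.40 for cdk7.L and 3.22 for cdk5rap3.S. For all of these but cdk7.L the sum of the single differences lies below log2 4, so a value of 0 or below could hardly have been measured. The sizes for cdk20.S and cdk5rap3.S are not measured, since 11 and 12 of the 15 injected arrays were below log2 4. The ccnd2.L and cdk5rap1.L calls were lost without any of 7 and 9 single arrays (adjusted p up to 0.0626 and 0.0648).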

How the results depend on the processing

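The 3 comparisons with GR kept their counts within 1.5 times under every alternative except the 2-fold threshold (10, 24 and 10 members higher with Pax3GR, Zic1GR and the combination, and 4 lower with the combination) and the 6 cycle roles alone (4 lower with Pax3GR and 4 with Zic1GR). The direct comparisons moved more. With the 2-fold threshold 3 members were lower in the combination than with Zic1GR, 7 lower with Pax3GR than with Zic1GR, and 17 were below additivity. At adjusted p under 0.01 the combination had 0 members higher and 0 lower than Pax3GR and 2 lower than Zic1GR, Pax3GR had 1 higher than Zic1GR, and 3 lay above and 19 below additivity. Array weights gave 3 higher and 7 lower for the combination against Pax3GR, 15 lower against Zic1GR, 11 higher and 35 lower for Pax3GR against Zic1GR, and 9 above additivity. Without the 4 arrays least like their groups the combination had 3 higher and 6 lower than Pax3GR and 1 higher and 16 lower than Zic1GR, and Pax3GR had 5 higher than Zic1GR. With only the groups of the comparison limma gave the combination 0 higher and 0 lower than Pax3GR (9 and 8 at an unadjusted p under 0.05 with all groups) and 5 lower than Zic1GR. Without the 3 members that passed the filter through 1 group, chosen after seeing the data, 3 lay above additivity. The 6 cycle roles alone gave 0 and 0 against Pax3GR and 2 above additivity. A filter of log2 4 on 10 arrays gave 3 above additivity, no filter gave 0 lower than Pax3GR, a floor at log2 4 gave 2, and the mean over probe sets gave 5 higher for Pax3GR against Zic1GR. Fewer members or a stricter threshold account by construction for the 2-fold, p under 0.01, 6-role and 3-member counts, and for the others the cause was not tested.

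Leaving out 1 array at a time gave 27 to 39 members higher and 8 to 9 lower with Pax3GR, 41 to 52 and 6 to 9 with Zic1GR, and 29 to 37 and 6 to 9 with the combination. The same gave 0 to 2 higher and 0 to 3 lower for the combination against Pax3GR, 0 to 0 and 4 to 12 against Zic1GR, 1 to 5 and 17 to 25 for Pax3GR against Zic1GR, and 5 to 8 above and 27 to 38 below additivity. Median member differences moved by less than the SD between arrays of a group (0.143) under all alternatives. Of 158 results for named members 98 passed the test, 42 of them under all alternatives and 56 not under at least 1, 21 of these without some single array. In the other direction 20 passed under at least 1 alternative. For ccnb3.S with Zic1GR the probe set with the lowest mean gave -0.76 in place of 0.88, and the cause was not tested. Replicate number as a block left the counts at 32, 51 and 36 higher and 8, 7 and 9 lower with Pax3GR, Zic1GR and the combination, and gave 4 higher for Pax3GR against Zic1GR and 6 lower for the combination against Zic1GR. In the block fit 1 named call was lost and 3 were gained, of 158. Signals below log2 4 (cdk20.S, cdk5rap3.S, cdc45.S, ccnd2.S) have no measured order.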
